A study of Zea mays with 6 samples.

Results

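The genes described here are 6 regulators of flowering in maize (Zea mays): zcn8, rap2.7, mads69, cct10, id1 and dlf1. They were chosen by identifier, as Zm00001d010752 (zcn8), Zm00001d010987 (rap2.7), Zm00001d042315 (mads69), Zm00001d024909 (cct10), Zm00001d032922 (id1) and Zm00001d022613 (dlf1). All 6 were found among the 44320 genes of the deposited expression table. The pairing of names with identifiers came with that choice, because the table itself holds no names and none of its identifiers was found in the reference gene list.

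RNA was sequenced from leaves of KO1, a line labelled as a ZmGA20ox3 knockout, and of wild-type (WT) plants, with 3 libraries each. ZmGA20ox3 encodes a gibberellin 20-oxidase, an enzyme of gibberellin synthesis. KO1 and WT share the cultivar label KN5585 and the treatment label normal growth, were raised in a greenhouse and were sampled at the V8 vegetative stage. The growth protocol writes the name of the WT line as KN5855, so whether KO1 and WT share a genetic background is not settled by the labels. KO1 is 1 edited line, and neither the edited allele, the leaf position nor the time of day at harvest is given in the sources used here. The labels call the libraries of a group biological replicates.

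Flowering in maize is set in part by florigen, a mobile protein that is made in leaves and moves to the shoot apex. The zcn8 gene encodes this protein, a relative of FLOWERING LOCUS T of Arabidopsis. Its transcript is held down by the AP2-type repressor encoded by rap2.7, and mads69, which encodes a MADS-box protein, is known to promote flowering by lowering rap2.7. The CCT-domain protein of cct10 delays flowering under long days. The zinc-finger protein of id1 acts in developing leaves upstream of florigen, and the bZIP protein of dlf1 acts with florigen at the shoot apex. Gibberellins also promote the floral transition in many plants.

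In KO1 leaves mads69 was present in every library, while it was listed at 0 in every WT library. The repressor gene rap2.7 was lower in each KO1 library than in any WT library, as were 17.6% of the 20990 tested genes. Its difference did not pass the adjusted test. The florigen transcript zcn8 was abundant in both genotypes and overlapped between them. The transcript of id1 was low in both genotypes, and those of dlf1 and cct10 were near or at 0.

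**Figure D1:**
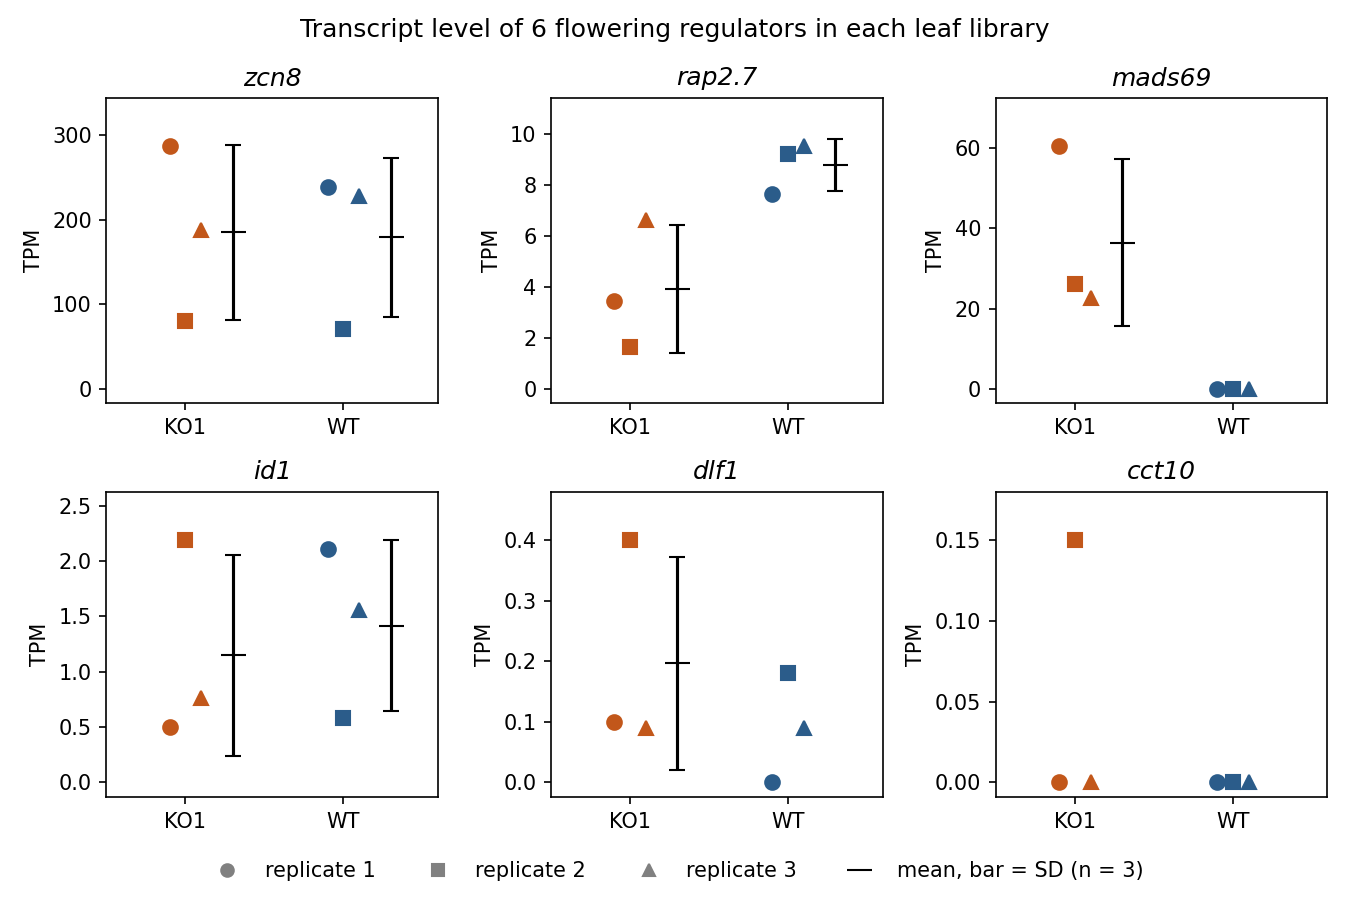
Level of each gene in TPM (linear axis) in the 3 KO1 libraries (left) and the 3 WT libraries (right), with symbols for replicate numbers. The black bar is the mean with its SD (n = 3), drawn where no library of the group was listed at 0; mads69 lies between 22.7 and 60.5 TPM in KO1 and at 0 in WT, while the zcn8 points of the groups overlap.

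Levels are in TPM, transcript abundance scaled for gene length and for the total of each library, so genes can be ranked within a library. The sequencing depth is unknown. The libraries had between 20697 and 21115 genes at 1 TPM or more in KO1 and between 19282 and 20537 in WT. The level of ZmGA20ox3 and markers of leaf or shoot apex tissue were not analysed here, because the sources used do not pair their names with identifiers, so the knockout and the tissue label were not checked. In leaf RNA, fewer cells of a type and less RNA per cell cannot be told apart.

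The florigen gene zcn8 had 286.73, 79.96 and 188.16 TPM across KO1 replicates 1 to 3, against 238.29, 70.71 and 228.10 TPM across WT replicates 1 to 3. The highest and the second lowest of the 6 values came from KO1, and the lowest came from WT, so the groups overlapped. In both genotypes the library numbered 2 was the lowest.

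The mean of zcn8 was 185 ± 103 TPM in KO1 and 179 ± 93.9 TPM in WT (SD, n = 3 each), a ratio of 1.03. On the log2(TPM + 1) scale the difference, KO1 minus WT, was 0.05 with a standard error of 0.62 (limma, adjusted p = 0.96). Its 95% interval ran from -1.43 to 1.54, which corresponds to folds of 0.37 to 2.91 on that scale. A change of up to 2.91-fold upwards or of a similar size downwards is therefore within the error of this comparison. The sign of so small a difference depended on the library left out, with values between -0.51 (without WT replicate 2) and 0.56 (without KO1 replicate 2).

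The spread of zcn8 among libraries of the same genotype was wide. The highest KO1 library had 3.59 times the level of the lowest, and the highest WT library 3.37 times. The within-group SD of log2(TPM + 1), pooled over both genotypes, was 0.96 for zcn8 against a median of 0.30 for all 20990 tested genes, and 94.5% of tested genes had a smaller one. By mean level zcn8 ranked 759th in the table. Its rank within a library lay between 434 and 2034 in KO1 and between 578 and 2318 in WT, with the lowest places in the libraries numbered 2.

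The genes most like zcn8 were sought among 15400 other tested genes with a mean of at least 5 TPM, by the root mean square difference between log2(TPM + 1) profiles, each centred on its mean over the 6 libraries. The median candidate differed from zcn8 by 0.85. The closest was Zm00001d038725, at 0.16, with 152.95, 49.63 and 118.67 TPM across KO1 replicates 1 to 3 and 120.63, 32.21 and 126.54 TPM across WT replicates 1 to 3. The second was Zm00001d035390, at 0.26, with 1424, 510 and 1364 TPM in KO1 and 1126, 549 and 1376 TPM in WT. Both, like zcn8, were lowest in the library numbered 2 of each genotype, and neither passed the test between genotypes (limma adjusted p = 0.78 and 0.93). As the 2 genes were chosen for likeness to zcn8 over these libraries, both traits follow largely from the choice. The likeness is a description over 6 libraries, in which the values of all genes come from the same leaf samples.

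**Figure D2:**
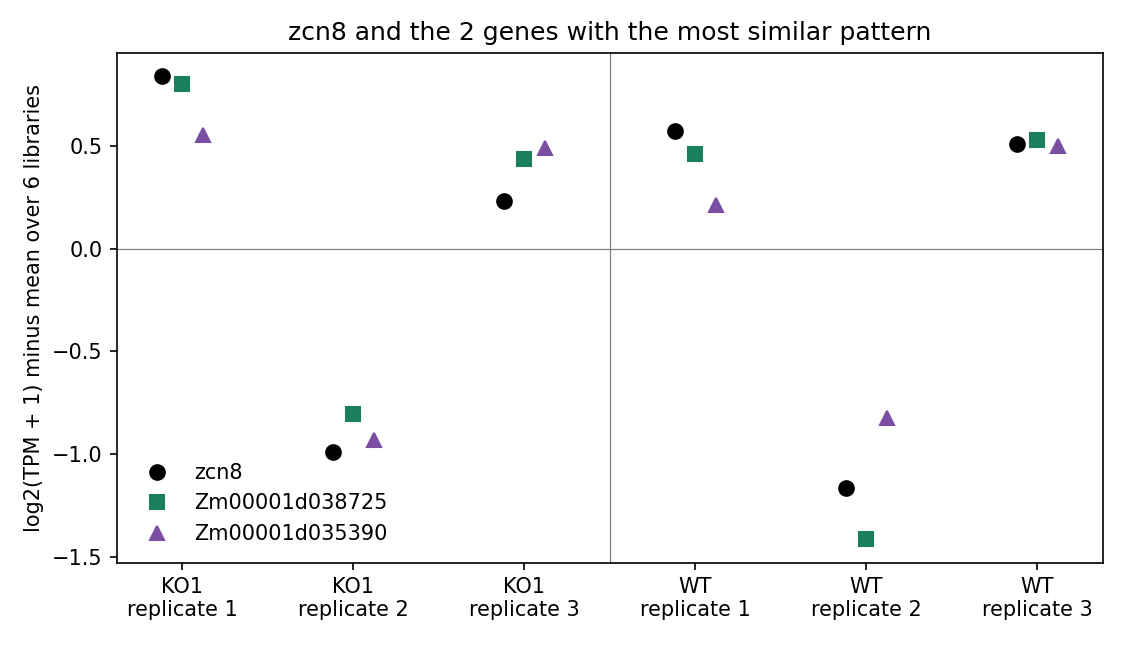
log2(TPM + 1) of zcn8 (circles), Zm00001d038725 (squares) and Zm00001d035390 (triangles) in each library, minus the mean of that gene over the 6 libraries, with KO1 left of WT. All 3 genes are below their mean in KO1 replicate 2 and WT replicate 2 and above it in the other 4 libraries.

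The repressor gene rap2.7 had 3.44, 1.65 and 6.64 TPM across KO1 replicates 1 to 3, against 7.63, 9.20 and 9.51 TPM across WT replicates 1 to 3. Every KO1 library was below every WT library, a separation also seen, with KO1 lower, in 17.6% of the 20990 tested genes and, with KO1 higher, in 22.9%. KO1 replicate 3 came close to the lowest WT library. The WT libraries lay close together, with the highest at 1.25 times the lowest, while the KO1 libraries spread over 4.02 times.

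The mean of rap2.7 was 3.91 ± 2.53 TPM in KO1 and 8.78 ± 1.01 TPM in WT (SD, n = 3 each), a ratio of 0.45. The difference on the log2(TPM + 1) scale was -1.12 with a standard error of 0.38 and a 95% interval of -2.04 to -0.20. Among all tested genes 5.54% had a more negative difference. The unadjusted limma p was 0.024 and the adjusted p was 0.092, so the difference did not pass the threshold of 0.05. Without KO1 replicate 3 it was -1.51 and passed (limma adjusted p = 0.038), and without KO1 replicate 2 it was -0.74 (limma adjusted p = 0.16). Over the other alternatives for rap2.7 the adjusted limma p lay between 0.038 and 0.24, with the lower value from library weights.

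The flowering activator mads69 had 60.47, 26.05 and 22.74 TPM across KO1 replicates 1 to 3 and was listed at 0 in each of the 3 WT libraries. The groups were fully apart, and KO1 replicate 1 had 2.66 times the level of KO1 replicate 3. The KO1 mean was 36.4 ± 20.9 TPM (SD, n = 3). Because the WT values are all 0, the change is not expressed as a fold. A 0 in such a file may also mark an estimate that failed. For mads69, as for the other genes, the edit and a possible difference in genetic background between KO1 and WT cannot be told apart.

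The difference for mads69 was 5.09 on the log2(TPM + 1) scale, with a standard error of 0.37 and a 95% interval of 4.20 to 5.98 (limma adjusted p = 0.0011). The SD of log2(TPM + 1) was 0.74 in KO1 and 0 in WT, so this standard error and interval draw partly on a group without spread. The gene was higher in 3 of 3 KO1 libraries, which was fixed by its entry into the test with WT at 0. Among all tested genes 0.162% had a larger rise. As WT values are all 0, the size of this difference follows from the pseudocount and is not a fold. The exact permutation p for this gene was 0.1, the smallest that 3 against 3 libraries allows. The gene passed the limit on low values through its KO1 libraries alone.

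In this design 15.7% of the 20990 tested genes passed the limma threshold, 9.87% as higher and 5.86% as lower in KO1. The count behind that share, 3301 genes, fell to 1482 without KO1 replicate 1, 1856 without KO1 replicate 2, 1314 without WT replicate 1 and 778 without WT replicate 3. Of the 4 flowering regulators that entered the test, mads69 passed as higher, and zcn8, rap2.7 and id1 did not pass. Their median difference was -0.07, against 0.05 for all tested genes. The groups did not overlap for mads69 and rap2.7, which is 2 of 4, while this held for 40.5% of all tested genes. These shares are near the background and single out no direction for the 4 genes together. With WT listed at 0, mads69 could enter the test only through its KO1 libraries. Its separation was thus fixed by that entry, and its call was favoured by it. The other 2 regulators, dlf1 and cct10, were below the limit on low values and were not in the fit.

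**Figure D3:**
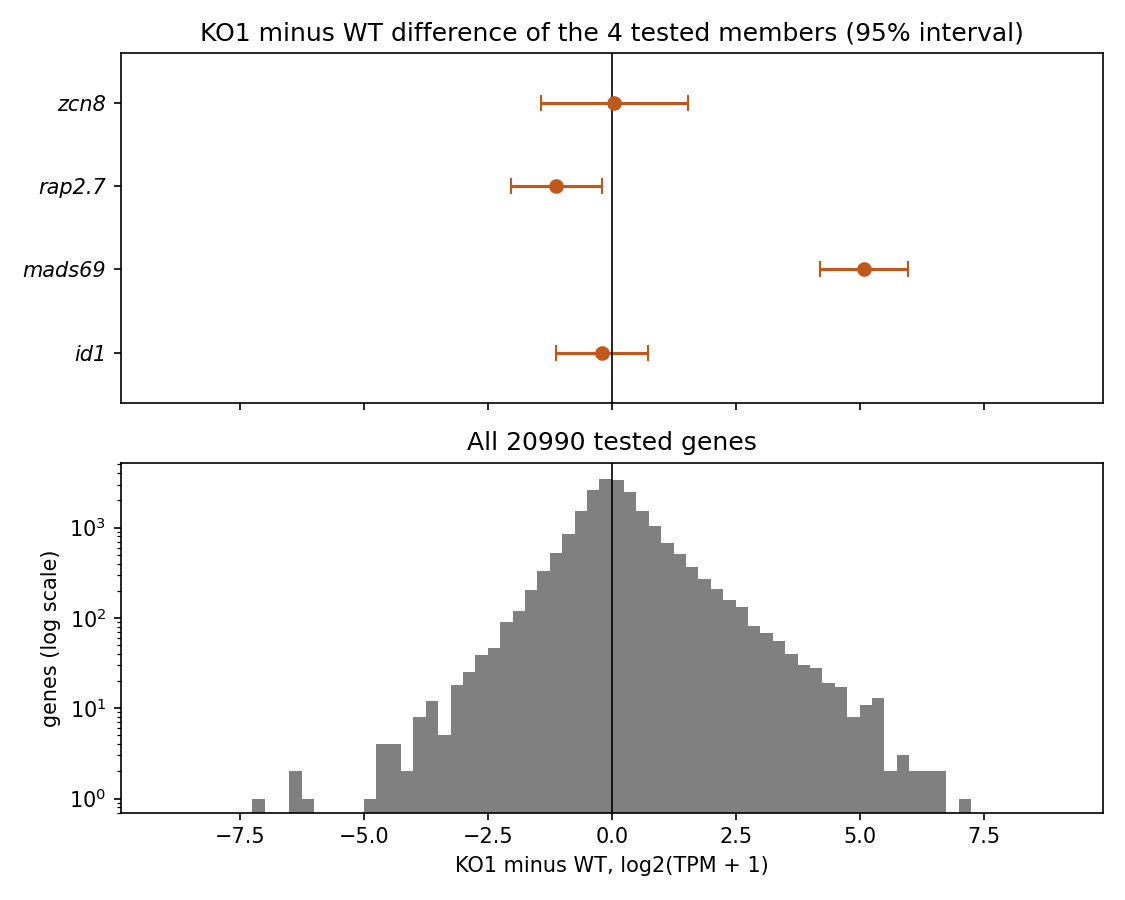
Upper panel, KO1 minus WT difference in log2(TPM + 1) with its 95% interval from limma for zcn8, rap2.7, mads69 and id1; lower panel, the number of genes (log axis) by the same difference for all 20990 tested genes. The mads69 point at 5.09 lies in the far right tail, and the zcn8 and id1 intervals include 0.

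A listing at 0 in all WT libraries with at least 1 TPM in each KO1 library held for 83 genes, 0.187% of the table. By mean KO1 level mads69 ranked 6th of these 83, whose median was 5.77 TPM. At least 20 TPM in each KO1 library was reached by 3 of the 83, mads69 among them. The set and the limit of 20 TPM were not planned and follow the pattern of mads69 itself. Its presence in both is therefore a description and not a test.

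Genes with identifier numbers close to that of mads69 were examined after its values had been seen, and whether these numbers follow gene order on the chromosome was not checked here. Within 100 numbers on either side there were 87 other tested genes, of which 8 were called higher and 7 lower in KO1. That is 17.2%, beside 15.7% of all tested genes. Within 50 numbers the share was 22.0% of 50 genes and within 200 numbers 19.6% of 179. The called gene nearest to mads69 was Zm00001d042313, 2 numbers away, with 31.63, 51.94 and 27.61 TPM across KO1 replicates 1 to 3 and 3.85, 4.35 and 3.62 TPM across WT replicates 1 to 3. Its difference of 2.90 with a standard error of 0.26 (limma adjusted p = 0.0021) was the largest rise within 200 numbers other than that of mads69. Its level was above 0 in WT, and its KO1 libraries followed another order than those of mads69, with replicate 2 the highest. What it encodes was not analysed here.

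**Figure D4:**
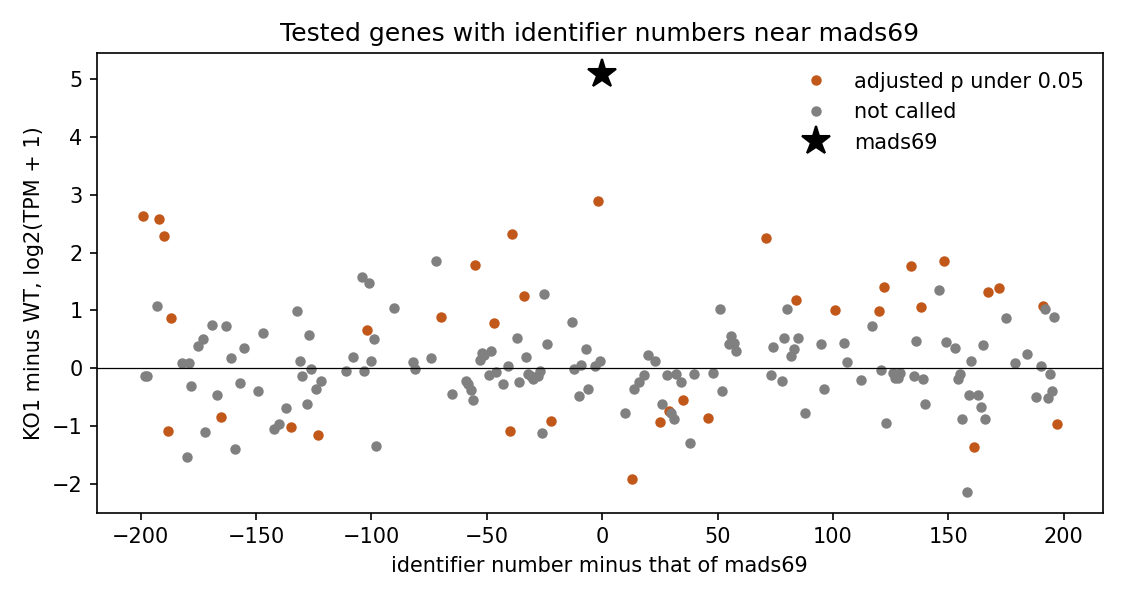
KO1 minus WT difference in log2(TPM + 1) of tested genes by identifier number relative to mads69 (star), with called genes coloured and others grey. Apart from mads69 at 5.09, differences lie between -2.14 and 2.90, and called genes are found on both sides of 0.

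The florigen activator gene id1 had 0.50, 2.19 and 0.76 TPM across KO1 replicates 1 to 3, against 2.11, 0.58 and 1.56 TPM across WT replicates 1 to 3. The groups overlapped over nearly their whole range. The mean was 1.15 ± 0.91 TPM in KO1 and 1.42 ± 0.78 TPM in WT (SD, n = 3 each). The difference on the log2(TPM + 1) scale was -0.19 with a standard error of 0.39 and a 95% interval of -1.13 to 0.74 (limma adjusted p = 0.76). Its sign turned without KO1 replicate 1 (0.027) and without WT replicate 1 (0.017). In KO1 the library with the lowest zcn8, replicate 2, had the highest id1. In WT both genes ran in the same order, highest in replicate 1 and lowest in replicate 2.

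The apex regulator dlf1 was close to 0 in leaves, with 0.10, 0.40 and 0.09 TPM across KO1 replicates 1 to 3 and 0, 0.18 and 0.09 TPM across WT replicates 1 to 3. The groups overlapped, and the mean log2(TPM + 1) differed by 0.13 (exact two-sided permutation p = 0.5). The photoperiod repressor cct10 was listed at 0 in 5 of the 6 libraries. Its single value above 0 was 0.15 TPM, in KO1 replicate 2. The same 6 values were listed for 19 other rows of the table, so at this level the file does not separate genes. For cct10 and dlf1 the WT values are too low to show a fall in KO1, and small differences of either sign cannot be read. No KO1 library exceeded 0.15 TPM for cct10 or 0.40 TPM for dlf1.

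In KO1 leaves the levels ran, in falling order, zcn8, mads69, rap2.7, id1, dlf1 and cct10. The ranges of zcn8, mads69 and rap2.7 did not overlap there, whereas those of rap2.7 and id1 did, as did those of dlf1 and cct10. In WT leaves the order was zcn8, rap2.7, id1 and dlf1, with mads69 and cct10 listed at 0. The WT ranges of zcn8, rap2.7, id1 and dlf1 did not overlap, and dlf1 shared the value 0 with the last pair.

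Pairs of a regulator and its known target or counterpart were compared within each library. The measure was the log2(TPM + 1) of the first gene minus that of the second, which depends on the scaling of a library only through the pseudocount. For zcn8 relative to rap2.7 it was 6.02, 4.93 and 4.63 in KO1 replicates 1 to 3, against 4.79, 2.81 and 4.45 in WT replicates 1 to 3. WT replicate 1 exceeded KO1 replicate 3, so the groups overlapped. The KO1 mean was 5.19 ± 0.73 and the WT mean 4.02 ± 1.06 (SD, n = 3 each), a difference of 1.18 (exact two-sided permutation p = 0.2, adjusted over the 3 pairs p = 0.3). WT replicate 2, with the lowest zcn8, set much of it, and without that library the difference was 0.57.

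For rap2.7 relative to mads69 the measure was -3.79, -3.35 and -1.64 in KO1 replicates 1 to 3, so mads69 was the more abundant of the pair in each KO1 library. It was 3.11, 3.35 and 3.39 in WT replicates 1 to 3, where mads69 is listed at 0 and the value is that of rap2.7 alone. The difference was -6.21 (exact two-sided permutation p = 0.1, the smallest possible; adjusted over the 3 pairs p = 0.3). The size of this difference rests on the pseudocount as well. Because rap2.7 and mads69 each separated the groups, in opposite directions, the pair had to separate them too. It adds no evidence beyond the single genes.

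Within KO1 the library with the most mads69, replicate 1, did not have the least rap2.7, which was in replicate 2. Replicate 3 had the least mads69 (22.74 TPM) and the most rap2.7 (6.64 TPM). A relation between these genes within KO1 was not tested. For zcn8 relative to cct10 the KO1 mean was 7.29 ± 1.04 and the WT mean 7.30 ± 0.99 (SD, n = 3 each), a difference of -0.01 (exact two-sided permutation p = 0.9, adjusted over the 3 pairs p = 0.9). With cct10 at or near 0 this pair follows zcn8 alone.

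**Figure D5:**
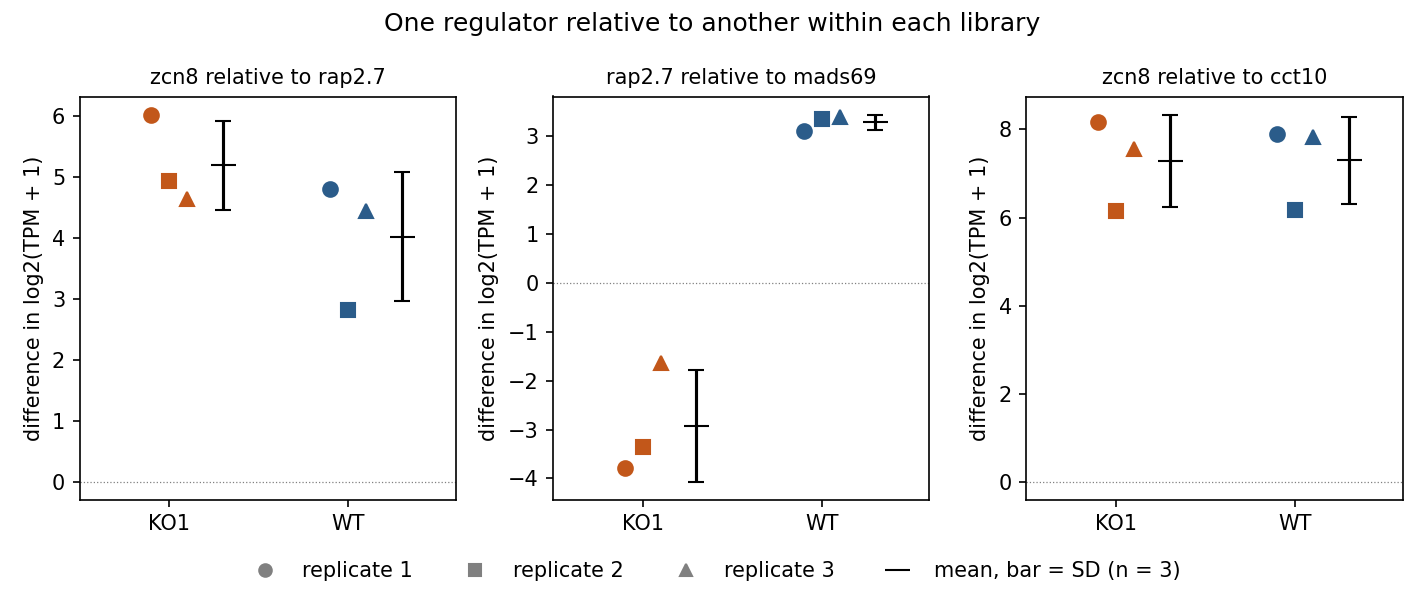
Difference in log2(TPM + 1) between a pair of genes within each library, with KO1 left of WT, symbols for replicate numbers and the mean with its SD (n = 3) in black. The rap2.7 relative to mads69 panel has all KO1 libraries below 0 and all WT libraries above 3, and the groups overlap in the other panels.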

How the data were processed

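The authors deposited 1 table of TPM values for the 6 libraries, rounded to 2 decimals, with each column summing to 1000000 within rounding. The submitters' processing notes name RSEM, Bowtie2 and DESeq2 and give no version or role. Not given in the sources used here are the genome build, the annotation and the read filters. TPM hold no depth, so no counting interval is given, and since the total is fixed, values within a library depend on each other. Sample titles gave the group and replicate number.

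Genes with at least 1 TPM in at least 3 libraries were tested, 20990 in all. The KO1 against WT fit used limma 3.58.1 under R 4.3.3, with log2(TPM + 1) as the response, a trended variance, a two-sided test without covariates and Benjamini-Hochberg adjustment over all tested genes at 0.05. This scale understates changes of low genes. Genes under the limit and pairs of genes were compared by exact two-sided permutation. The procedure was tested on simulated data with independent normal errors and far fewer changed genes than were called here. As that setting differs from these data, it is no check of the calls reported here. Same-numbered KO1 and WT libraries had correlations of -0.01, 0.09 and 0.02 between their deviations from the group means, under 0.1, so the numbers were not taken as pairs. Plots used matplotlib 3.10.9.

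The named genes are all 6 regulators and the 2 genes closest to zcn8 in pattern; Zm00001d042313 was added after its values were seen. The members, lists and tests were chosen with earlier results of these data known. A list of 43 other flowering symbols and lists of tissue markers were set up, and none was analysed here, since 0 of the 44320 identifiers matched the reference gene list (49888 genes). The same holds for sequences and coordinates of the 6 genes. Alternatives covered the pseudocount, the limit on low values, scaling, weights for libraries, the variance model, omission of libraries and a replicate block.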

Additional observations from a re-analysis of the deposited data

How the results depend on the processing

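For mads69 the limma adjusted p was between 0.00022 and 0.010 over the 16 alternatives that gave a value. With every WT library listed at 0 its direction could not turn in any of them, so this is no sign of stability. The difference in rap2.7 was negative in all 17 alternatives. As every KO1 library was below every WT library, only the scaling alternatives could have turned its sign, so this is no sign of stability either. The rap2.7 difference passed with library weights (-0.97) and without KO1 replicate 3, and leaving out each library gave -1.51 to -0.74. Leaving out each library gave -0.51 to 0.56 for zcn8, -0.52 to 0.027 for id1 (0.027 without KO1 replicate 1, 0.017 without WT replicate 1), 0 to 0.10 for cct10 and -0.58 to 0.56 for zcn8 relative to cct10, none past the threshold. For zcn8 the sign also turned under trimmed-mean scaling (-4.4e-04) and library weights (-0.16), and without both libraries numbered 2 (-0.0052), an alternative chosen after seeing the data, which put cct10 at 0. The count of 3301 called genes was 6838 with library weights, where WT replicate 3 had a weight of 8.53, and ranged over 778 to 2929 on omission of single libraries, lowest without WT replicate 3; the cause was not tested. The replicate block gave 2806 calls and changed no call among the 6 genes, with 0.097 as the limma adjusted p of rap2.7. For zcn8 the block left the difference at 0.05 and lowered its standard error from 0.62 to 0.19. The error stated for zcn8 thus depends on not taking the replicate numbers as pairs. The share of called genes that were higher in KO1 was 62.7%, and 48.8% under quantile normalization, which moved the median difference of all genes to -0.09. With at least 1 TPM required in all 6 libraries mads69 and id1 drop out. Quantile normalization gave no value for dlf1 and cct10, which were not in the fit, and variance models and weights gave none for them either. The alternatives for the list of other flowering genes were not run. Depth is unknown, so how far it limits dlf1, cct10 and id1 cannot be stated.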
